A study of Caenorhabditis elegans with 2 samples.

Results

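Ranked regions from chromatin immunoprecipitation of a tagged tag-97 fusion protein were examined at the genes for small nucleolar RNAs (snoRNAs) of Caenorhabditis elegans. A region belonged to this set when its summit fell no more than 1000 bp before, or 200 bp past, the 5′ end of a gene annotated as snoRNA, and 544 of the 118176 regions in the joint ranked list did. Chromatin immunoprecipitation and sequencing was done on whole animals at the fourth larval stage (L4), aged 66 hours, after L1 larvae obtained by bleaching had been starved. The strain, OP719, carried the transgene wgIs719, in which tag-97 was joined to TY1, EGFP and 3xFLAG, together with the marker unc-119(+), in the unc-119 (tm4063) mutant background. An anti-GFP antibody was used for the precipitation, chromatin had been sonicated to 200 to 800 bp, and the labels name svh-5 as the target of the insertion. There were 2 biological replicates of this 1 group. The signal therefore belongs to a tagged transgene product in all tissues of the animal at once, sex was not recorded, and no second genotype, stage or treatment was compared.

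Small nucleolar RNAs guide enzymes to ribosomal and other RNAs. Box C/D snoRNAs direct 2′-O-methylation by fibrillarin, and box H/ACA snoRNAs direct pseudouridylation by dyskerin. Many are cut out of the introns of host genes, often genes for ribosomal proteins and translation factors, while others are transcribed from promoters of their own. Transfer RNA (tRNA) genes, which RNA polymerase III transcribes, carry their promoter inside the gene as an A box followed by a B box.

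The sequences of some strong regions show where on the DNA the signal lay. A region is called listed when it was also in the authors' joint thresholded list, which held 321 regions, and the sequences come from the WBcel235 assembly (ce11), written 5′ to 3′ on the strand of the nearest snoRNA gene. Shown are the 4 listed regions of highest signal at intronic snoRNA genes and the 4 of highest signal at other snoRNA genes, taken from chromosomes II, IV, V and X, so the regions at iff-2 and cdc-48.1, and the strongest member of all, which was not listed, are not among them. The first set holds those whose summits lay beside the snoRNA gene, printed whole, with annotated snoRNA genes in capitals. In 4 of these 5 the summit was within 37 bp upstream of the snoRNA, and in C51F7.4 it was 39 bp inside it.
C51F7.4 (V:12303490-12303785, plus strand): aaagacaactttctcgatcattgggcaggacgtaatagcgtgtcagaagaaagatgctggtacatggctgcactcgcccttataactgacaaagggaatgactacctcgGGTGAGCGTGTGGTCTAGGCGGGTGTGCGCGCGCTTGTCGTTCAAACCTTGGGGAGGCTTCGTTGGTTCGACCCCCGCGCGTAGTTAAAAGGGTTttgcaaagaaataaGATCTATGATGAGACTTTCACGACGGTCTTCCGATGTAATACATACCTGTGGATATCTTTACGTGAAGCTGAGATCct
ZK994.7 (V:8500423-8500718, plus strand): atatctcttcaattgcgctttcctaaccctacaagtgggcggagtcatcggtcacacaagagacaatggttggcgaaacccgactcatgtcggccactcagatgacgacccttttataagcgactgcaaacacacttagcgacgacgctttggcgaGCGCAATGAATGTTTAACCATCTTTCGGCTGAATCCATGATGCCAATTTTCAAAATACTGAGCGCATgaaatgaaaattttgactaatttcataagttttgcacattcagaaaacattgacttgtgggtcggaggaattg
T03F7.8 (V:11314097-11314392, plus strand): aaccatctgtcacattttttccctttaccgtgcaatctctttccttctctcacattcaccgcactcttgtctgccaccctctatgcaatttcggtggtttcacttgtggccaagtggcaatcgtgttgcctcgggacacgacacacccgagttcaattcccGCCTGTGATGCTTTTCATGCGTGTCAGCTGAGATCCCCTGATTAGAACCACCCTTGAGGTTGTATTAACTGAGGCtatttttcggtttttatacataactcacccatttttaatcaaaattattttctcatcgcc
W01C9.6 (II:8547024-8547319, plus strand): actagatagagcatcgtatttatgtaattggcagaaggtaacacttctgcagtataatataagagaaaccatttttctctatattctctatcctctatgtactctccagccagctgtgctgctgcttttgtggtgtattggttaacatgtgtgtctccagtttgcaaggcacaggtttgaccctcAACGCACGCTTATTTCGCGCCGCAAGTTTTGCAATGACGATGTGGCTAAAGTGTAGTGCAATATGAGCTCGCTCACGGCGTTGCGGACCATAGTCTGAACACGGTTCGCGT
T06C12.16 (V:15873794-15874089, minus strand): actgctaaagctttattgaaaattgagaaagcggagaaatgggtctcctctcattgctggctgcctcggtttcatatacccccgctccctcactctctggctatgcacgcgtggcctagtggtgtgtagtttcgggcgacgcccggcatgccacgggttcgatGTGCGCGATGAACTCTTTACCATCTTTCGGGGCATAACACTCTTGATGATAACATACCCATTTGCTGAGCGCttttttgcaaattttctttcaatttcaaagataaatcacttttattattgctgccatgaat

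The second set holds 50 bases on either side of the summit for those whose summit lay farther than 100 bp from the snoRNA gene. The first 2 of these summits were in the promoters of the host genes rpl-15 and rps-23. The last lay 762 bp upstream of T27A8.8, a snoRNA gene outside other genes on the X chromosome. Capitals mark matches on either strand to the word GGCCTA, the related word CTAGGC or the further word CTGCGC, all put forward by earlier results of these data, or to the B box core GTTCGA.
K11H12.13 (IV:654850-654950, minus strand): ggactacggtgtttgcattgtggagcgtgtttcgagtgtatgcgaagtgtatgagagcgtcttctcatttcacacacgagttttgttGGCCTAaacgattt
F28D1.13 (IV:12391267-12391367, minus strand): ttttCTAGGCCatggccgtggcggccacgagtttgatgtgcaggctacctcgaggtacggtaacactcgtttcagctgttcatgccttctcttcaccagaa
T27A8.8 (X:16056562-16056662, plus strand): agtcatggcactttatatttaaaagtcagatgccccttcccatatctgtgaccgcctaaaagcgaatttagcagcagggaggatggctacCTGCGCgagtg

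Another set shows a pair of words found just upstream of snoRNA genes, chosen after the listed sequences had been read. The A box-like word GGNNNANNGG and the B box-like word GTTCNANNC, where N is any base, are in capitals. Of the genes shown, T03F7.8 and Y43F8C.22 had a listed region and the others did not.
T03F7.8 (V:11314204-11314255, plus strand): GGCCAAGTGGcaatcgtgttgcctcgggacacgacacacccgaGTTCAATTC
Y43F8C.22 (V:19643188-19643239, minus strand): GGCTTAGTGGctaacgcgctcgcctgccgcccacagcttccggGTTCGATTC
Y75B12B.12 (V:15191099-15191149, minus strand): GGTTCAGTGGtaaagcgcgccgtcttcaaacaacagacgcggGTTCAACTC
C41C4.11 (II:8107274-8107325, minus strand): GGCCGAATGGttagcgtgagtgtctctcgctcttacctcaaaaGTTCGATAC
M106.6 (II:10840256-10840308, plus strand): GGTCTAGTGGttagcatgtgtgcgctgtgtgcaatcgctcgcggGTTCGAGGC
Y38F2AR.14 (IV:2408632-2408684, minus strand): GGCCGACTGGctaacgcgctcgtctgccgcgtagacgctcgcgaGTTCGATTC
F30H5.4 (III:502737-502788, plus strand): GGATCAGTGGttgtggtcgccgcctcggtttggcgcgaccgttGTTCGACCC

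The signal is a value that the authors' peak calling gave each region, on a scale that the sources do not state, and it is compared here within a list. Read counts were not analysed, so sequencing depth is unknown. Regions had been ranked by the irreproducible discovery rate (IDR), a measure of how well a region keeps its rank between paired inputs. In all, 19 of the 544 regions were listed (3.49%, exact 95% interval 2.12% to 5.40%), against 0.272% of all joint ranked regions. The regions at snoRNA genes had a median signal of 21.2 (range 2.24 to 302), against 18.6 over all ranked regions. For other gene classes with the same window, 23 of 910 regions at tRNA genes (2.53%, median signal 23.1), 3 of 180 at small nuclear RNA genes (1.67%, median 21.5) and 123 of 24696 at protein-coding genes (0.498%, median 18.5) were listed. Regions are not replicates of a condition, so no test was made of these differences. The intervals on shares cover counting error only.

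Within the windows, listed regions gathered at 2 kinds of place. This split by place was made after the data had been seen. The contrast between places is therefore no test, and the intervals do not allow for the choice. The summits of 135 regions lay within 100 bp of the snoRNA's own 5′ end, a limit chosen after the distances had been seen, and 13 of these were listed (9.63%, exact 95% interval 5.23% to 15.9%). Another 39 regions had a summit in the promoter window of the gene that hosts the snoRNA, and 5 of these were listed (12.8%, 4.30% to 27.4%). Of the 370 regions elsewhere in the windows, 1 was listed (0.270%). The median signal was 24.8 at the snoRNAs' own 5′ ends, 18.6 in the host promoters and 19.9 elsewhere. The host promoters thus held several of the strongest regions while their middle value was that of the whole ranking.

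**Figure D1:**
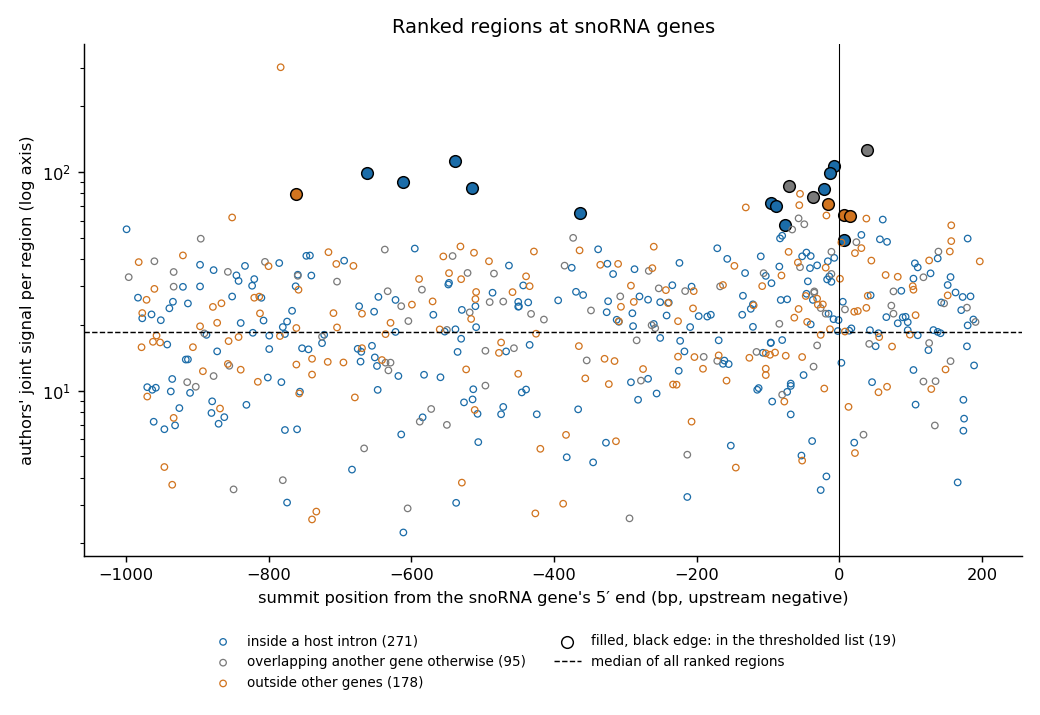
Joint signal of each of the 544 regions (log axis) against the position of its summit from the snoRNA gene's 5′ end in bp, coloured by where the snoRNA gene lies. Larger filled points with a black edge are the 19 listed regions, of which 13 sit between -96 and 39 bp, and the dashed line is the median of all ranked regions, 18.6.

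The higher signal close to the snoRNA 5′ end was also measured in the ranked list of each replicate. In replicate 1, 99 regions within 100 bp had a median signal of 14.9, against 11.7 for 327 regions farther off in the windows and 10.2 for all regions ranked in that replicate. In replicate 2, 102 regions within 100 bp had a median of 18.3, against 15.2 for 260 regions farther off and 14.2 for all ranked regions. By bins of 100 bp, the bin just upstream of the 5′ end had the highest median of all bins in each of these rankings, at 1.41 times the joint list's own median, 2.03 times that of replicate 1 and 1.43 times that of replicate 2. Just outside the window the joint medians were near that of the whole list. Between 1000 and 1100 bp upstream, just outside the window, 35 joint regions had a median signal of 18.8, and between 200 and 300 bp downstream 45 had 18.5. Regions just inside those edges had medians of 16.4 (42 regions, 900 to 1000 bp upstream) and 23.4 (49 regions, 100 to 200 bp downstream). The downstream bin inside the window was thus as high as the first 100 bp of the gene (1.25 and 1.24 times the list's median), and in replicate 1 it was 1.31 times the list's median inside the window and 0.746 times outside it.

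**Figure D2:**
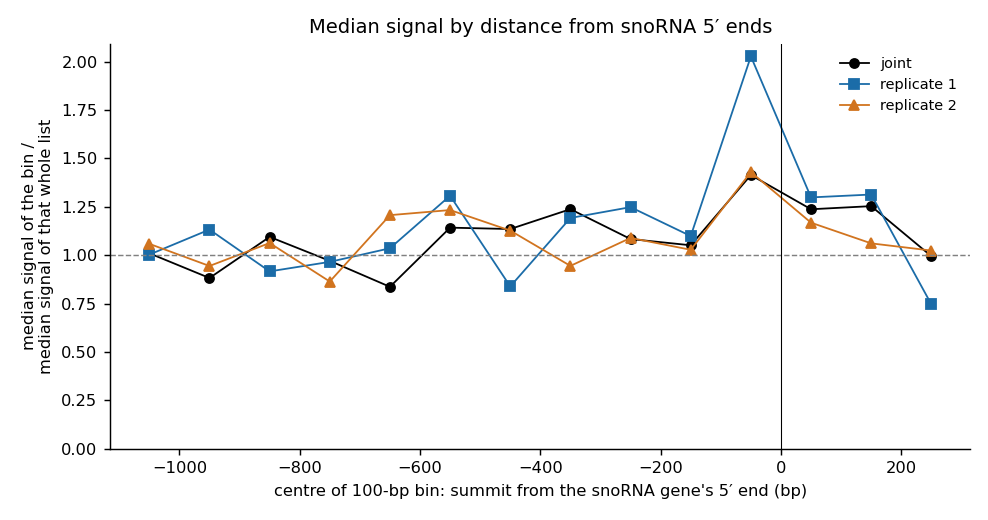
Median signal of regions in bins of 100 bp by distance of the summit from the snoRNA 5′ end, divided by the median of the whole ranked list, for each of 3 rankings (joint and the 2 replicates). The bin from -100 to 0 bp is the highest in each, at 1.41, 2.03 and 1.43, and the bins outside the window are between 0.746 and 1.06.

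The listed regions at the snoRNA 5′ end had summits from 96 bp upstream to 39 bp inside the gene. The strongest lay over C51F7.4 and the neighbouring C51F7.3, a snoRNA gene with box C and box D words, within the FERM-domain gene frm-7. Its joint signal was 126.8, with 58.3 in replicate 1 and 67.6 in replicate 2, and it alone of the 19 was in the thresholded lists of both replicates. ZK994.7, in an intron of the peroxidasin gene pxn-1, had a joint signal of 106.1, with 46.2 in replicate 1 and 56.6 in replicate 2, with its summit 8 bp upstream. T03F7.8 lies in an intron of the cuticlin-like gene cutl-18 on the opposite strand and had a joint signal of 98.7, with 44.1 in replicate 1 and 53.7 in replicate 2. In these 3 regions each replicate's value was far above the median of its own list, 10.2 in replicate 1 and 14.2 in replicate 2. ZK994.7 was in the thresholded list of replicate 2 only, and T03F7.8 was in that of neither replicate.

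Support differed at the next members. F39B2.14 overlaps tmem-107, a gene of the ciliary transition zone, and had a joint signal of 86.5, with 11.5 in replicate 1 and 64.1 in replicate 2. Its value in replicate 1 was the lowest of the 19 and close to the median of that replicate's list, 10.2, and its summit was also 9 bp upstream of tmem-107 and 448 bp upstream of the ribosomal protein gene rps-26. C10C6.8, in an intron of catp-8, which encodes a P-type ATPase, had a joint signal of 84.1, with 48.1 in replicate 1 and 38.0 in replicate 2. W01C9.6, a gene that ends in an ACA motif and overlaps the globin gene glb-27, had a joint signal of 76.6, with 25.6 in replicate 1 and 46.9 in replicate 2. The summits at C10C6.8 and W01C9.6 were 21 and 37 bp upstream of the snoRNA.

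Of the other 7 listed regions beside snoRNA genes, 4 were at intronic genes. Y37E3.20 lies in pcyt-2.1, a gene of phosphatidylethanolamine synthesis, and had a joint signal of 72.6, with 23.6 in replicate 1 and 33.8 in replicate 2. C27H6.5, in the synaptic vesicle endocytosis gene unc-41, had a joint signal of 69.7, with 35.0 in replicate 1 and 29.6 in replicate 2. Y43F8C.22, in Y43F8C.7, had a joint signal of 57.5, with 27.4 in replicate 1 and 32.7 in replicate 2. For these 3, summits were 76 to 96 bp upstream of the snoRNA. F07A11.15 lies opposite to din-1, which encodes a corepressor that interacts with the nuclear receptor DAF-12, and had the lowest listed signal, 48.9, with 32.6 in replicate 1 and 21.5 in replicate 2. Its summit was 6 bp inside the snoRNA and also 47 bp past the start of an annotated din-1 transcript.

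The remaining 3 were at snoRNA genes outside other genes, with summits between 16 bp upstream and 15 bp inside. T06C12.16 had a joint signal of 71.2, with 24.6 in replicate 1 and 38.7 in replicate 2. T26A8.6 had a joint signal of 63.7, with 34.1 in replicate 1 and 37.7 in replicate 2. ZK20.9 had a joint signal of 62.8, with 33.3 in replicate 1 and 27.5 in replicate 2. None of these 3 was in the thresholded list of either replicate, although each exceeded the median of both replicates' ranked lists. Some listed summits beside snoRNA genes also lay in the window of another gene. Those at T03F7.8, Y37E3.20, F07A11.15 and C10C6.8 were 71, 86, 102 and 181 bp past the start of a non-coding RNA (ncRNA) gene. The summit at ZK994.7 was 935 bp upstream of a tRNA gene. At ZK20.9 it was 906 bp upstream of the ncRNA gene ZK20.8, and at Y43F8C.22 976 bp upstream of mrps-28.

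**Figure D3:**
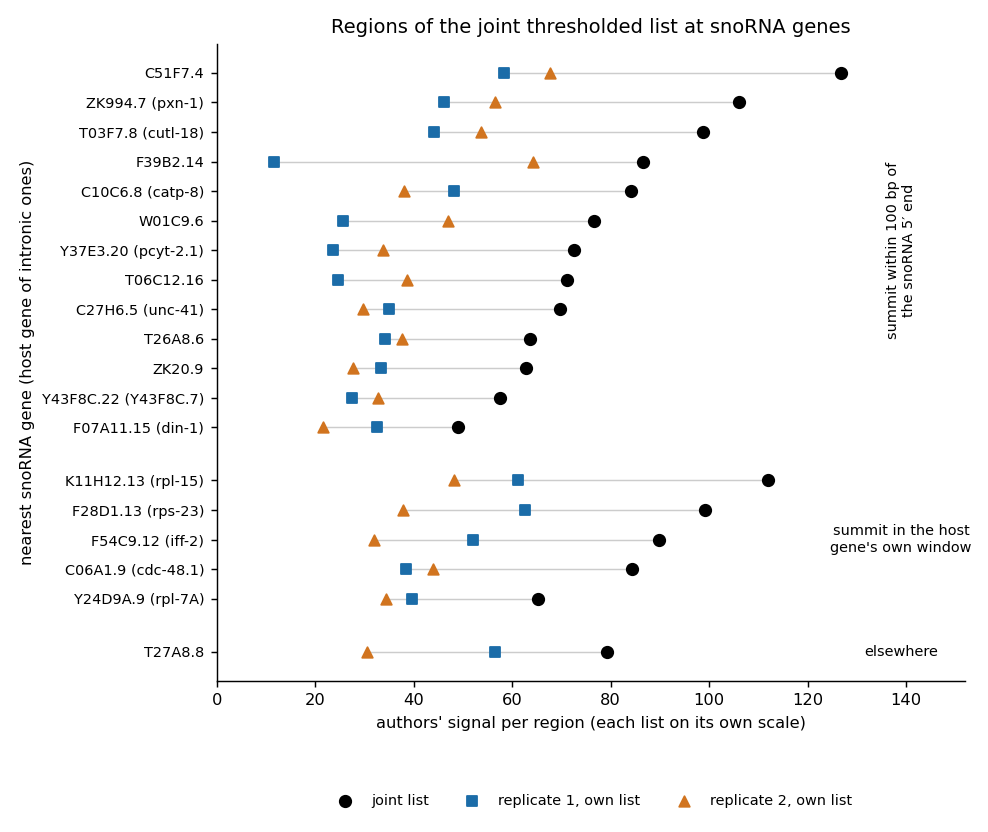
Signal of the 19 listed regions in the joint list (circles) and of the overlapping region in the ranked list of replicate 1 (squares) and replicate 2 (triangles), each list on its own scale, grouped by where the summit lay. All 19 lie above the replicate medians of 10.2 and 14.2, with F39B2.14 in replicate 1 (11.5) the closest.

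At the host promoters, 3 of the 5 listed regions belonged to ribosomal protein genes. The region 324 bp upstream of rpl-15, host of K11H12.12 and K11H12.13, had a joint signal of 111.9, with 61.1 in replicate 1 and 48.2 in replicate 2. The region 264 bp upstream of rps-23, host of F28D1.13, had a joint signal of 99.2, with 62.6 in replicate 1 and 37.7 in replicate 2, and it lay 270 bp upstream of the neighbouring dpm-3, which encodes a subunit of dolichol-phosphate mannose synthase. The region 81 bp upstream of rpl-7A, host of Y24D9A.9 and Y24D9A.10, had a joint signal of 65.3, with 39.5 in replicate 1 and 34.2 in replicate 2. The rpl-15 summit was also 490 bp upstream of K11H12.8 and the rpl-7A summit 173 bp upstream of set-21, so all 3 lay in windows shared with a neighbouring gene. In these cases the snoRNA 5′ end was 363 to 662 bp downstream of the summit, so the snoRNA window and the promoter of its host described the same region.

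The other 2 host promoters were those of iff-2 and cdc-48.1. iff-2 encodes a homologue of translation factor eIF5A and hosts F54C9.12, and its region, 16 bp upstream of the gene, had a joint signal of 89.8, with 52.0 in replicate 1 and 31.9 in replicate 2. cdc-48.1 encodes an AAA ATPase of the p97 type and hosts C06A1.9, and its region, 172 bp upstream, had a joint signal of 84.4, with 38.4 in replicate 1 and 43.9 in replicate 2. All 5 host-promoter regions were in the conservative list, which came from ranking the replicates against each other and held 182 of those 114284 regions (0.159%). Of the 13 at snoRNA 5′ ends, 5 were in it.

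The last of the 19 lay 762 bp upstream of T27A8.8, a snoRNA gene outside other genes on the X chromosome. Its joint signal was 79.2, with 56.5 in replicate 1 and 30.4 in replicate 2. No other annotated 5′ end had this summit in its window, with genes for Piwi-interacting RNAs left out of the search.

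The split by gene position gave similar middle values. Regions at intronic snoRNA genes numbered 271, with a median signal of 20.7 and 12 listed (4.43%, exact 95% interval 2.31% to 7.61%). Regions at snoRNA genes outside other genes numbered 178, with a median of 21.4 and 4 listed (2.25%, 0.616% to 5.65%). The 95 regions at snoRNA genes that overlap another gene in some other way had a median of 22.8 and 3 listed (3.16%). The intronic median minus the outside median was -0.723, and it was 0.186 once regions also in the window of a protein-coding gene were left out. The order of the intronic and outside medians thus changed with that choice of regions, and the cause was not tested. Within 100 bp of the snoRNA 5′ end the medians were 25.5 for 65 intronic regions, 24.3 for 46 regions outside genes and 28.3 for 24 overlapping ones, with 7, 3 and 3 listed. Listed regions beside the snoRNA were thus present in all 3 classes.

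Counted by gene, the annotation held 346 snoRNA genes, of which 310 had a ranked region in the window and 22 (6.36%) a listed one. The 22 genes shared 19 listed regions. C51F7.3 and C51F7.4 had the same region, as did K11H12.12 and K11H12.13, and Y24D9A.9 and Y24D9A.10. No share of all genes with a listed region is given here, so these gene counts and the host counts below lack a background. A listed region was found at 15 of 180 intronic genes (8.33%), at 4 of 108 outside other genes (3.70%) and at 3 of 58 overlapping genes (5.17%). The host lay on the same strand for 151 intronic snoRNA genes, of which 13 had a listed region, and on the opposite strand for 29, of which 2 did. By chromosome, listed regions were at 7 genes each on IV and V, 5 on II, 2 on I, 1 on X and 0 of the 54 genes on III. The C/D words TGATGA near the start and CTGA near the end, within 20 bases, were both in 14 genes, and ACANNN ended 58 genes, while 274 genes matched neither. Listed regions were at 1 of the 14, 8 of the 58 and 13 of the 274. Of the 8, only C10C6.8, W01C9.6 and Y43F8C.22 had a listed summit within 100 bp of their 5′ end. K11H12.12, K11H12.13, Y24D9A.9, F28D1.13 and C06A1.9 were counted through regions at the promoters of their hosts. The C/D words and the ACANNN ending were sought on the sense strand of the annotated gene, and no match says only that the letters are not in that stretch.

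The 180 intronic snoRNA genes had 159 hosts, 17 of which held more than 1. Genes for ribosomal proteins made up 13 of the hosts with 19 snoRNA genes, and 3 of the 13 had a listed region at the promoter and snoRNA window alike. The promoters of 2 further ribosomal protein hosts show the spread of the unlisted: the strongest ranked region had a signal of 51.2 at rpl-24.1 and of 7.27 at rpl-4. Of 2 translation factor hosts, iff-2 had a listed region, and eef-1G, a subunit of elongation factor 1, had 22.2 at its promoter. The 4 RNA processing hosts had none listed, and they included nol-56, a box C/D core protein gene with 4 snoRNAs in its introns and a strongest signal of 44.3 in their windows. The chaperone hosts hsp-1 and dnj-20 had none either, with 49.7 at the snoRNA of the HSP70 gene hsp-1. Among the 138 other hosts, 10 had a listed region in a window of the host or of its snoRNA.

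Where the listed summit was beside an intronic snoRNA, signal was also read in the window at the annotated gene start of the host. The window of pxn-1 had a strongest signal of 3.19, against 106.1 at its snoRNA. For Y43F8C.7 the host window had 11.8, for unc-41 28.0, for cutl-18 31.5 and for catp-8 45.3, each below the value at the snoRNA and unlisted. For din-1 it had 24.1, but that gene start is 13578 bp from the summit at F07A11.15, and another din-1 transcript starts 47 bp before the summit. No ranked region fell in the window at the gene start of pcyt-2.1, and another pcyt-2.1 transcript begins 433 bp from the summit at Y37E3.20. At din-1 and pcyt-2.1 the listed summit thus lay in the promoter window of a host transcript as well. At frm-7 the host window had 14.6. Over all hosts, 183 regions lay in host windows and outside snoRNA windows, with a median of 20.2 and 1 listed, at wwp-1, which encodes a HECT ubiquitin ligase (49.8).

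Letters shared by the regions were then counted. The word GTTCGA was within 50 bases of 2 of the 19 listed summits, of 26 of the 544 members and of 3.90% of all ranked summits. GGCCTA was found at 4 of 19, 20 of 544 and 2.27%, and CTAGGC, which overlaps it in part on the reverse strand, at 4 of 19, 15 of 544 and 2.05%. CTGCGC was found at 2 of 19, 21 of 544 and 1.43%. In the 302 listed regions away from snoRNA genes, GTTCGA was found at 7.28%, GGCCTA at 9.60%, CTAGGC at 7.95% and CTGCGC at 6.95%, so listed regions of other kinds carried these words more often than all ranked regions too. The median GC content around the summit was 53.5% for listed members, 40.6% for members not listed, 46.5% for the 302 other listed regions and 38.6% for all ranked regions. GC content thus moved with listing, and its part in these counts was not tested.

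The tRNA-like words printed above were counted over all snoRNA genes, on the sense strand from 110 bp upstream to 10 bp inside the gene. GTTCNANNC was present at 38 of 346 snoRNA genes (11.0%), against 349 of 19985 protein-coding genes in the same window (1.75%). GGNNNANNGG was present at 41 snoRNA genes (11.8%), against 486 protein-coding genes (2.43%). Both words, with the second starting 20 to 80 bp after the first, were present at 18 snoRNA genes (5.20%), against 3 protein-coding genes (0.0150%). No annotated tRNA gene overlapped the window of any snoRNA gene that held the words. In 17 of the 18 the stretch from the start of the first word to the end of the second was 51 to 53 bp long, and in the other it was 43 bp. It ended a median of 4 bp before the snoRNA, with a range of -4 to 15 bp, where a negative value lies inside the gene. The 18 were 11 intronic genes, 4 outside genes and 3 overlapping ones. A match is a description of letters, and no binding by a factor was measured here.

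Regions beside snoRNA genes with both words had a higher median signal than the others within 100 bp of a snoRNA 5′ end, a difference that was not tested. In the joint list, 13 such regions had a median signal of 42.9 (range 20.6 to 98.7), against 23.6 for 122 regions at snoRNA genes without the pair (3.51 to 126.8). In replicate 1 the medians were 25.3 for 12 regions with the pair and 14.7 for 87 without, and in replicate 2 they were 28.6 for 12 and 17.6 for 90. All 13 exceeded the joint list's median of 18.6, and so did 71 of 108 regions without the pair at genes with no listed region. Of the 13 regions with the pair 2 were listed, both among the listed sequences from which the words had been chosen, against 11 of the 122 without it. Since the words had been chosen from listed sequences, the medians were also taken without the genes of listed regions. They were 41.2 for 11 regions with the pair and 22.5 for 108 without in the joint list, 21.0 for 10 and 13.2 for 76 in replicate 1, and 25.8 for 10 and 16.4 for 76 in replicate 2. Of these replicate 1 regions, 7 of the 10 with the pair and 48 of the 76 without exceeded the list's median. In replicate 2, 8 of the 10 and 50 of the 76 did.

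Individual genes of this group ranged widely. Y75B12B.12, outside other genes, had a joint signal of 61.3, with 23.6 in replicate 1 and 30.4 in replicate 2. C41C4.11 had a joint signal of 54.6, with 29.0 in replicate 1 and 27.7 in replicate 2. M106.6 had a joint signal of 41.2, with 28.0 in replicate 1 and 29.4 in replicate 2, and Y38F2AR.14 had a joint signal of 40.5, with 27.0 in replicate 1 and 22.3 in replicate 2. These replicate values were above the medians of the replicates' lists. C05D2.15 had the lowest joint signal of the 13, 20.6, with 8.79 in replicate 1 and 14.1 in replicate 2, just below both medians. T08B2.13 was also below the median of replicate 1, at 6.08, and H04D03.5 below that of replicate 2, at 9.02. F12F6.11 and ZK484.9 had no overlapping region in replicate 2. For the other 5 of the 18 genes, no region of the joint list assigned to them had its summit within 100 bp.

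**Figure D4:**
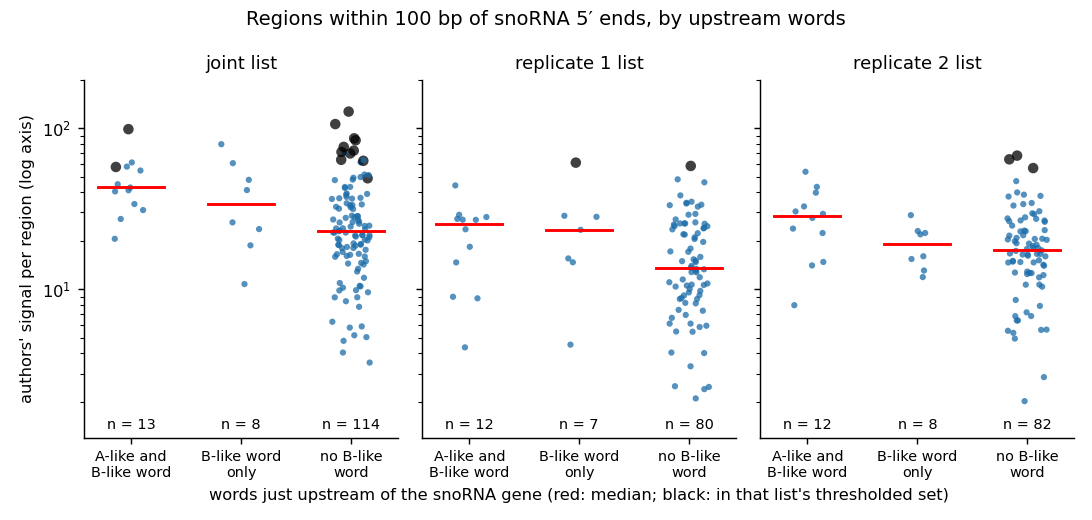
Signal (log axis) of regions within 100 bp of a snoRNA 5′ end in the joint list and in each replicate's list, split by whether the snoRNA gene has both the A box-like and the B box-like word just upstream, the B box-like word only, or no B box-like word. Red bars are medians and black points are regions in that list's thresholded set. Genes with both words have the highest median in each list (42.9, 25.3 and 28.6). The strongest region without a B box-like word was assigned to C51F7.4, but the neighbouring C51F7.3 has that word upstream.

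Most members were not listed, and 10 of these 525 had signals of 57.7 or more. The strongest of all members, 783 bp upstream of WBGene00220185, a snoRNA gene on the clone Y57G11C outside other genes, had a joint signal of 302, with 147.3 in replicate 1 and 192.9 in replicate 2. Its IDR of 6.51e-05 was below the largest IDR in the thresholded list, 0.00998, yet it was left out of that list, as were 75 of the 396 ranked regions with an IDR of at most 0.01. It was also narrower, 94 bp, than the 296 bp of the other 543. W03C9.9, a gene with box C and box D words, had a joint signal of 79.6, and its summit was 55 bp upstream. Replicate 1 gave 61.1 there and listed the region, and replicate 2 gave 21.9. K02C4.8, with a summit 18 bp upstream and a signal of 63.3, missed the list by the least, at an IDR of 0.01002, against 0.00927 at Y37E3.20, the highest among the listed members.

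The other members of these 10 had IDR values of 0.0107 to 0.537. F25H2.15, whose sequence occurs in 6 places in the genome, had a joint signal of 70.6, with 38.3 in replicate 1 and 30.3 in replicate 2. ZK265.10 had a joint signal of 68.9, with 23.9 in replicate 1 and 31.2 in replicate 2. F42A8.4 had a joint signal of 62.0, with no overlapping region in replicate 1 and 36.5 in replicate 2. T25C12.12, within lin-14, a regulator of larval timing on X, had a joint signal of 61.5, and its replicates were far apart, with 5.83 in replicate 1 and 39.9 in replicate 2. F55A11.10, with a summit 61 bp inside the gene, had a joint signal of 60.7, with 23.4 in replicate 1 and 31.0 in replicate 2. T19B4.8 had a joint signal of 57.7, with 14.7 in replicate 1 and 43.2 in replicate 2, and Y75B12B.12 is given above. In 5 of these 10, W03C9.9, F25H2.15, K02C4.8, T25C12.12 and T19B4.8, the summit was 18 to 57 bp upstream of the snoRNA gene.

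The replicates' signals were weakly correlated over the members. An overlapping ranked region was present for 395 of the 544 in replicate 1, for 340 in replicate 2 and for 248 in both. Over those 248 the Spearman correlation of the replicates' signals was 0.305, over the 80 of them within 100 bp of a snoRNA 5′ end it was 0.374, and over 42051 ranked regions of any kind 0.167. These are descriptions over regions that share libraries and local sequence. By the replicates' own thresholded lists, 5 of 426 members of the replicate 1 ranking were listed (1.17%), against 0.0834% of all its regions, and 3 of 362 in replicate 2 (0.829%), against 0.103%. Of the 19 joint listed regions, 1 overlapped a listed region of both replicates, 3 of replicate 1 alone, 2 of replicate 2 alone and 13 of neither. The sequence of 3 of the 19 occurred in more than 1 place in the genome, 4 places for Y37E3.20, 3 for Y24D9A.9 and 2 for T26A8.6, and so did that of 96 of all members.

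Genes for the proteins of snoRNA particles were set beside the snoRNA genes. None of 11 had a listed region at its promoter, and 10 had a ranked one. With 0.498% of all regions at protein-coding genes listed, a count of 0 says nothing about these genes in particular. The strongest were at the assembly ATPase genes ruvb-2, with a joint signal of 48.8, and ruvb-1, with 37.7. Among box C/D core genes, nol-58 had 29.8, nol-56 27.4, snu-13 25.4 and the fibrillarin gene fib-1 14.7, the lowest. Among box H/ACA genes, dkc-1, which encodes the pseudouridine synthase, had 25.9, nola-3 20.4 and Y48A6B.3 18.4, and garr-1 had no ranked region. The nucleolar phosphoprotein gene dao-5 had 23.0. The IDR at these 10 was between 0.350 and 0.789, far from the 0.01 of the list.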

How the data were processed

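Whole L4 worms gave 2 biological replicates of 1 group; the labels do not say whether these were separate cultures. The files were 8 region lists on ce11: ranked and thresholded lists for each replicate, for the replicates against each other (conservative) and for a joint ranking. The signal deposited by the authors is a value per region on an unstated scale. The score, also deposited by the authors, rises as the IDR falls. The −log10 of the global IDR, deposited by the authors in the ranked lists, was turned back into an IDR. For the aligner and peak caller, versions included, the entry is: not given in the sources used here. Depth is unknown. In the series rankings, 16 columns that describe paired inputs were not used, since no header ties them to a replicate.

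Summits were placed on WBcel235 gene models. A region with several snoRNA genes took the nearest. An intronic snoRNA lay wholly within an intron of another gene's transcript. Replicate values are the highest signal of an overlapping region in that replicate's ranked list. Repeat copies are BLAST alignments of at least 100 bp at 80% identity. Named were all listed regions, the 10 strongest members not listed and the snoRNA particle genes. The alternatives were other windows, lists and thresholds, each replicate alone, merging, and leaving out shared windows or repeats. The scripts were tested on simulated data. Members, gene lists and words were chosen with earlier results of these data known. Python 3.11.15, pandas 2.3.3, NumPy 2.4.6, SciPy 1.17.1, matplotlib 3.10.9 and BLAST 2.17.0 were used.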

Additional observations from a re-analysis of the deposited data

How the results depend on the processing

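The number of regions at snoRNA genes, 544, was 291 when the window was narrowed (500 bp before, 100 bp past the 5′ end), and 362 to 426 in the list of 1 replicate alone. The listed share of 3.49% was 2.09% in the conservative list, 0.735% at an IDR of at most 0.001, 5.88% at 0.05 and 0.829% to 1.17% in 1 replicate alone. The median signal of 21.2 was 24.2 with overlapping regions merged and 12.6 to 15.9 in 1 replicate alone, on those lists' own scales. The difference of -0.723 between intronic and outside medians was -0.109 in the narrower window, -0.560 in the conservative ranking, -1.27 with regions merged, -1.06 with hosts on the same strand only, -0.620 without repeated sequence, -1.40 to -1.28 in 1 replicate alone and 0.186 without regions in protein-coding windows, which reversed it. The share of intronic snoRNA genes with a listed region, 8.33%, was 2.78% at an IDR of 0.001, 3.89% without regions in protein-coding windows and 1.11% to 2.22% in 1 replicate alone. The share for genes outside others, 3.70%, was 0% at an IDR of 0.001, 11.1% at 0.05 and 0% to 1.85% in 1 replicate alone. The 22 snoRNA genes with a listed region became 14 in the conservative list, 6 at 0.001, 36 at 0.05, 13 without protein-coding windows and 4 to 7 in 1 replicate alone. The share listed within 100 bp of the 5′ end, 9.63%, was 3.76% in the conservative list and 2.02% to 2.94% in 1 replicate alone, alternatives that were added after seeing the data, and 12% within 50 bp and 5.83% within 200 bp. Listing by 1 replicate was rarer in general (0.0834% and 0.103% of all regions), so these shares are not on the scale of the joint list. The causes of these shifts were not tested. No paired analysis was possible because there was 1 group. With 19 listed regions and unknown depth, shares of single classes carry wide intervals, and a region missing from a list is not shown to be unbound. Intronic snoRNA windows close to a host's start could not be told apart from the host promoter.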
